A study of Homo sapiens with 4 samples.

Results

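The genes described here make, sense and move cholesterol and fatty acids, and were chosen by a fixed list of 35 symbols. The list was chosen with earlier results of these data known, so shares of members set beside shares of all genes are descriptions only. The list holds 18 enzymes of sterol synthesis, 6 regulators of sterol sensing, 4 genes of the liver X receptor (LXR) and cholesterol efflux, and 7 genes of fatty acid synthesis. A probe set counted where the platform annotation gave it a single symbol, and the brightest probe set stood for its gene. In this way 33 of the 35 genes were measured, out of 18417 genes in all. FDFT1 and HSD17B7 were not analysed here. ABCG1 was among the 30% of genes with the lowest mean signal and was left out of the tests, so that 32 members were tested.

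The cells were NOMO-1, an established monocytic cell line from human acute myeloid leukaemia. Every array came from cells transduced with a lentivirus at a multiplicity of infection of 1, with RNA collected 48 h after selection. The control group, labelled ZFX wild type, held 1 array of a GFP virus (LEN-GFP) and 1 of a scrambled hairpin (SCR). The ZFX knock-down group held 1 array each of the hairpins SH1 and SH3 against ZFX, a zinc finger transcription factor. No construct was repeated, and nothing in the labels says that the cultures were independent, so a p-value here measures only the spread between these arrays, which may be technical. The question of the study was the effect of lower ZFX on gene expression in this line.

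Cells make cholesterol from acetyl-CoA through mevalonate, squalene and lanosterol. When sterols in the endoplasmic reticulum are low, SCAP escorts the SREBP transcription factors to the Golgi, where proteases release their active part, and genes of sterol and fatty acid synthesis are switched on. INSIG proteins hold SCAP back when sterols are plentiful. Oxysterols, made when cholesterol is in excess, activate LXR, which raises the exporters ABCA1 and ABCG1 and the ubiquitin ligase MYLIP, an inhibitor of lipoprotein uptake. Sterol synthesis and LXR targets are therefore usually known as opposite arms of cholesterol balance. In monocytes and macrophages the efflux arm is prominent, since these cells take up much cholesterol.

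Promoter sequence is shown for 6 members on which the results below turn: 3 genes of sterol synthesis and sensing, the desaturase SCD, and 2 LXR targets. Each line gives the 250 bases before a RefSeq transcript start of assembly GRCh38.p14, 5′ to 3′ on the strand of the gene. Capitals mark matches, on either strand, to CCAAT (the box bound by NF-Y, a known partner of SREBP, which reads ATTGG on the other strand) or to CACCCCAC (the core of the classical sterol response element). For HMGCS1, which has 2 such windows in the table, the window with more matches is shown.
INSIG1 (chr7:155297628-155297877, plus strand): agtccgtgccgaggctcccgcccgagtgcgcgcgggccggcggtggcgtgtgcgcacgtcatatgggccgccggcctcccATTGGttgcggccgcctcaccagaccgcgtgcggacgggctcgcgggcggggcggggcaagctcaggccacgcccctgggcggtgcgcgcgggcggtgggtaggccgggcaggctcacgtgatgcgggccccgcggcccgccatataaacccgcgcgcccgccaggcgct
HMGCS1 (chr5:43313413-43313662, minus strand): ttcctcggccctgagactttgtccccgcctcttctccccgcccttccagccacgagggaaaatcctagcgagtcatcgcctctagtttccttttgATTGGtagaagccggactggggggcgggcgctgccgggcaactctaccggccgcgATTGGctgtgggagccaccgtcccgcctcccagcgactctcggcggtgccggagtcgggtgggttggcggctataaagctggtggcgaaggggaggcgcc
MSMO1 (chr4:165327419-165327668, plus strand): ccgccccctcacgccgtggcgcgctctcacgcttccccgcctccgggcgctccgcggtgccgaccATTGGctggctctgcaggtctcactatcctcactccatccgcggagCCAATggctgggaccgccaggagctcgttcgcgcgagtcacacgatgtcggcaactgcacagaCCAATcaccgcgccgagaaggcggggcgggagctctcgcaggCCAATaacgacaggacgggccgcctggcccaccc
SCD (chr10:100346983-100347232, plus strand): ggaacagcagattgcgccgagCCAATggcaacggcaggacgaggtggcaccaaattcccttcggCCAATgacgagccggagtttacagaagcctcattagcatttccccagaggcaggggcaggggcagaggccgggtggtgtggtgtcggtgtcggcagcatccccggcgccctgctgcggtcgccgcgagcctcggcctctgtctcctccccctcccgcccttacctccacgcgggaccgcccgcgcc
MYLIP (chr6:16128836-16129085, plus strand): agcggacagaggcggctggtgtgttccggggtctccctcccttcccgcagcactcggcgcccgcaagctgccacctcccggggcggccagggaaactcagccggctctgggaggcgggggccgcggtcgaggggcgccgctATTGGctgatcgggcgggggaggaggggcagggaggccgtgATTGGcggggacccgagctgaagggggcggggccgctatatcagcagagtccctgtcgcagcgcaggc
ABCA1 (chr9:104928156-104928405, minus strand): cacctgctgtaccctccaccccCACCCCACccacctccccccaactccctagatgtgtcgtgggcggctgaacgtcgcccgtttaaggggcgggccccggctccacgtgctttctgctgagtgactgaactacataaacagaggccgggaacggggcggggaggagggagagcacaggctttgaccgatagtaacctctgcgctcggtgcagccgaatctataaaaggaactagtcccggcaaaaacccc

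MSMO1 held 4 CCAAT matches, HMGCS1, SCD and MYLIP 2 each, INSIG1 1 and ABCA1 0, while ABCA1 held 1 match to CACCCCAC. Windows were found for 30 of the 35 listed genes, 45 windows in all. CCAAT was present in 55.6% of these windows, against 11240 of all 35116 windows (32.0%) of the same length. Of the 11 windows of enzymes from squalene to cholesterol, 9 held it, and of the 12 windows of fatty acid genes, 5 held it. CACCCCAC was present as an exact match in 2 of the 45 windows (4.44%), those of ABCA1 and SREBF2, against 2.43% of all. Sterol response elements with other letters were not counted, so windows without this match may still hold one. AGGCCT, the core of the motif known for ZFX, was present in 5 of 45 (11.1%), against 9.20% of all windows. An exact match to the idealised DR4 element of LXR was present in 0 of the 45 windows and in 0.0142% of all. DR4 elements with other letters were not counted, so windows without this match, including that of ABCA1, may still hold one. No window shown held matches to both motifs, and a match is a description of the letters alone.

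ZFX itself was measured at a log2 intensity of 10.65 on LEN-GFP, 10.66 on SCR, 10.13 on SH1 and 10.12 on SH3. Both hairpin arrays lay below both controls, at -0.52 on SH1 and -0.54 on SH3 from the control mean. The ZFX signal stood at 69.3% of control (difference -0.53, SE 0.10, limma adjusted p = 0.797, unadjusted p 0.00386). That adjusted p was the smallest reached in this comparison. The line carried the markers of its label. Of 9 myeloid markers 7 were measured, and their mean signal lay at or above the percentile 66.1 of all genes, while the 4 T cell markers lay between 15.0 and 31.7. The summed intensity of the myeloid markers was 40518 to 40723 in the controls, 40533 on SH1 and 35544 on SH3. The myeloid markers went in different directions. MPO, the myeloperoxidase of immature myeloid cells, fell on SH3 (13.30 and 13.36 in the controls, 12.31 on SH3, limma adjusted p = 2.77e-04). CSF1R, a receptor of the monocyte lineage, rose on SH1 by 0.96 (limma adjusted p = 0.0334) and was at 0.21 on SH3. CD4 differed between the hairpins, at -0.24 on SH1 and 0.44 on SH3 (limma adjusted p = 0.0266), and ITGAM was at 0.06 and 0.37 without passing. LYZ, SPI1 and CEBPA did not pass on either hairpin. The marker sums of B cells (264 to 300), erythroid cells (155 to 220), epithelium (247 to 271) and fibroblasts (493 to 543) were low on all 4 arrays, as was the T cell sum (276 to 318). Several such markers were not in the tests because their signal was among the lowest 30%. In bulk RNA, fewer cells of a kind and less RNA per cell cannot be told apart. The part of these shifts in the results below was not tested.

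With both hairpins set against both controls, no member passed the test. In limma, with Benjamini-Hochberg adjustment over 12892 genes, 0 members were called, as were 0% of all genes (smallest adjusted p 0.797). At an unadjusted p under 0.05 there were 2 of 32 members, INSIG2 and ABCA1, and 779 of 12892 genes (6.04%). Of the 33 members measured, 22 had a difference above 0, and their median was 0.10 on the log2 scale, against -0.0029 over all genes tested. Both hairpin arrays lay above both controls for 11 of the 32 members tested, or 34.4%, where 18.2% of all genes did. They lay below both controls for 5 of 32, or 15.6%, where 19.0% of all genes did.

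The hairpins were then set against the same controls singly. In these fits the lone array is assumed to vary like the control pair, and the comparisons share both controls. SH1 alone gave 0 called members (smallest adjusted p 0.216), where 0.419% of all genes were called. SH3 alone gave 10 called members, all higher, which is 31.3% of those tested, where 13.2% of all genes were called, 6.27% of them higher and 6.90% lower. The 10 were ACAT2, HMGCS1, MSMO1 and DHCR7 among the sterol enzymes, INSIG1 and INSIG2 among the regulators, ABCA1 and MYLIP among the LXR genes, and FADS1 and LPIN1 among the fatty acid genes. With no intensity trend in the moderation 5 of the 10 kept their call (ACAT2, HMGCS1, DHCR7, FADS1 and LPIN1 lost it) and MVK was called as well (limma adjusted p = 0.0492). With dim genes kept 6 of the 10 kept it (ACAT2, DHCR7, FADS1 and LPIN1 lost it). INSIG1, INSIG2, MSMO1, ABCA1 and MYLIP were called under every alternative that gave them a value. These alternatives were chosen after the data were seen.

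**Figure D1:**
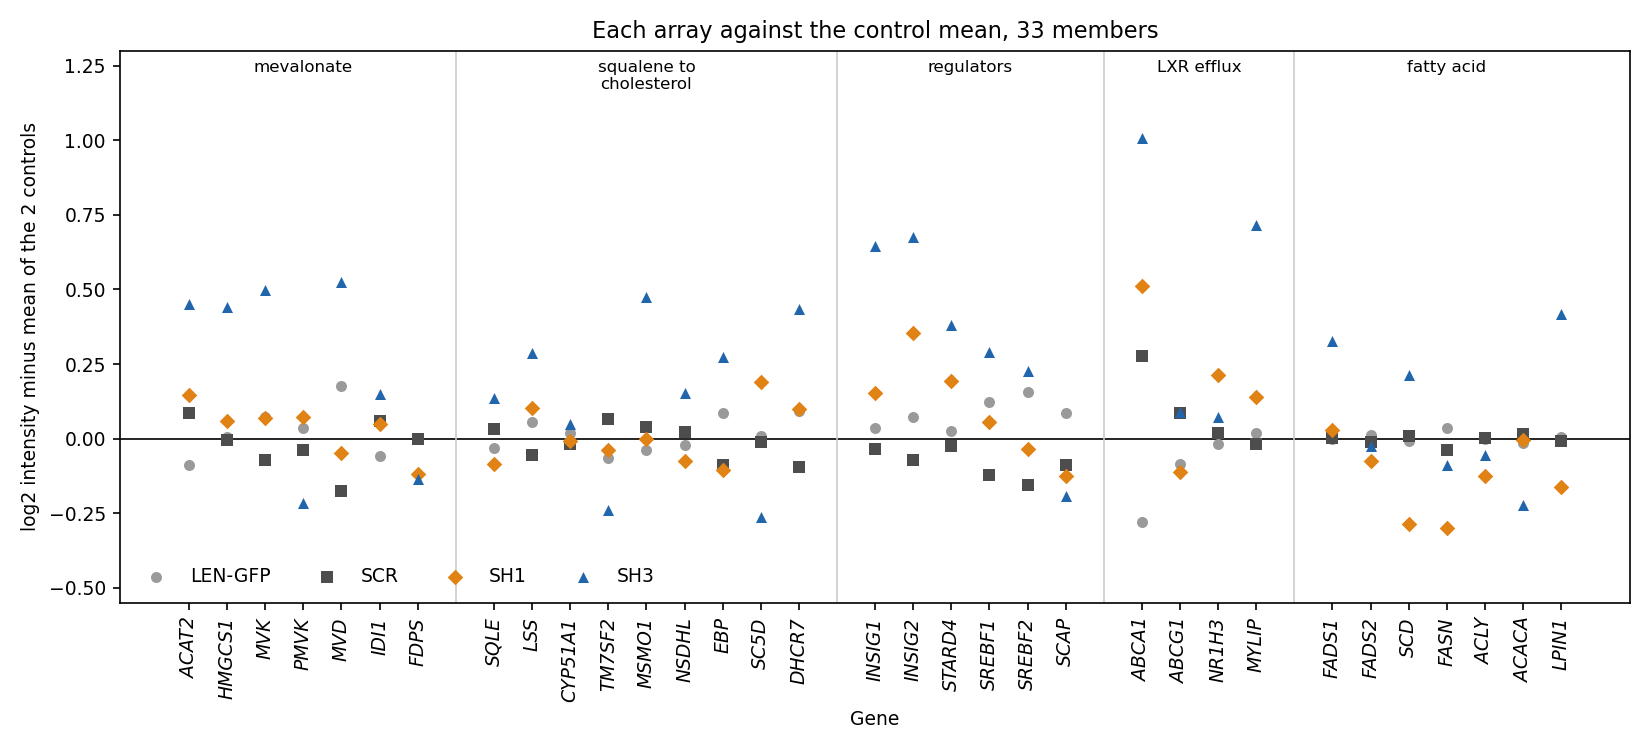
The plot shows, for each of the 33 members on the horizontal axis, the log2 intensity of each array minus the mean of the 2 controls, so that the controls mirror each other around 0. SH3 (triangles) lies highest for 23 of the 33 genes, with ABCA1 at 1.01, and 6 of the 7 fatty acid genes at the right lie below 0 on SH1.

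SH3 lay above both controls for 24 of the 33 members, where 38.7% of all genes tested did, and below both for 9, where 39.8% did. It was the highest of the 4 arrays for 23 of the 33 members and for 32.8% of all genes tested. This held for 12 of 16 sterol enzymes, 5 of 6 regulators, 3 of 4 LXR genes and 3 of 7 fatty acid genes. The gene groups also differed in where SH1 lay. Relative to the control mean, the median of the mevalonate enzymes was 0.06 on SH1 and 0.44 on SH3, and that of the enzymes from squalene to cholesterol was -0.0062 and 0.15. The median of the regulators was 0.10 and 0.34, and that of the LXR genes 0.18 and 0.40. For the fatty acid genes the SH1 median was -0.13 and the SH3 median -0.03. Over all genes tested these medians were -0.0006 and -0.0015. These are descriptions of the lists, with no test of one list against another.

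**Figure D2:**
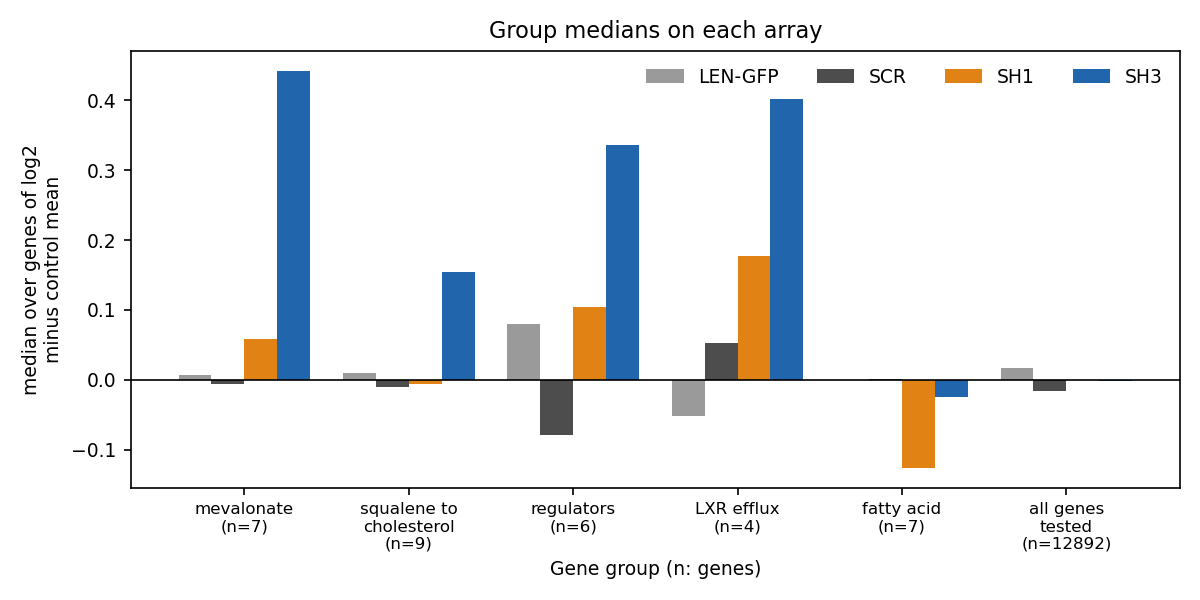
Bars give the median over the genes of a group of the log2 intensity minus the control mean, for each array, with the number of genes under each group. The mevalonate enzymes, regulators and LXR genes stand highest on SH3, the fatty acid genes are below 0 on both hairpins, and all genes tested lie near 0.

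The mevalonate and isoprenoid enzymes supply the building blocks of sterols. HMGCS1, the synthase that makes hydroxymethylglutaryl-CoA, had log2 intensities of 12.38 on LEN-GFP, 12.37 on SCR, 12.44 on SH1 and 12.82 on SH3. The controls were nearly level and SH3 stood apart, at 1.36-fold of control (log2 0.44, SE 0.08, limma adjusted p = 0.00924), while SH1 was at 0.06 above control. ACAT2, a thiolase that condenses acetyl-CoA, was at 11.18, 11.35, 11.41 and 11.72 on the arrays in the same order. Its SH3 value rose by 0.45 (SE 0.11, limma adjusted p = 0.0310). For this gene SH1 lay only slightly above the higher control.

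MVK, the mevalonate kinase, was at 8.97 on LEN-GFP, 8.83 on SCR, 8.97 on SH1 and 9.40 on SH3. MVD, which makes isopentenyl diphosphate, was at 9.65 on SCR, with LEN-GFP 0.35 higher, and at 9.78 on SH1 and 10.35 on SH3. Both genes had SH3 as the highest array, at 0.50 (MVK) and 0.53 (MVD) above the control mean. Neither was called on SH3 in the main fit. Both were called with each array centred on its median, and MVK also without a trend. IDI1, the isomerase of isopentenyl diphosphate, had a difference of 0.15 on SH3 and 0.05 on SH1. The other 2 enzymes of this stretch went the other way on SH3. PMVK, the phosphomevalonate kinase, was at -0.22 on SH3 and 0.07 on SH1, and FDPS, the farnesyl diphosphate synthase, at -0.13 and -0.12. Neither passed (SH3 adjusted p 0.383 and 0.535 in limma). FDPS has near-identical pseudogene copies that share probe sets on this array, so its value is uncertain.

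Among the enzymes from squalene to cholesterol, MSMO1, the methylsterol oxidase, was at 11.94 on LEN-GFP, 12.02 on SCR, 11.98 on SH1 and 12.46 on SH3. SH1 lay between the controls, and SH3 alone was 1.39-fold of control (log2 0.48, SE 0.09, limma adjusted p = 0.0106). DHCR7, the reductase of the last step to cholesterol, was at 11.57, 11.38, 11.58 and 11.91. Its SH3 value rose by 0.44 (SE 0.11, limma adjusted p = 0.0343), with SH1 level with the higher control. The other 7 enzymes did not pass on SH3. LSS, the lanosterol synthase, EBP, the sterol isomerase, NSDHL, a sterol dehydrogenase, and SQLE, the squalene epoxidase, had SH3 differences of 0.29, 0.27, 0.15 and 0.13. CYP51A1, the lanosterol demethylase, differed by 0.05 on SH3, and its other probe set ran from 12.38 to 12.51 over the 4 arrays.

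SC5D and TM7SF2 were the enzymes of this stretch with lower values on SH3. SC5D, the lathosterol desaturase that works just before DHCR7, was at 12.12 on LEN-GFP, 12.10 on SCR, 12.29 on SH1 and 11.84 on SH3. The controls were nearly level, with SH1 above and SH3 below them, and SH3 did not pass against the controls (-0.26, limma adjusted p = 0.0964). TM7SF2, a sterol reductase, was at -0.24 on SH3 and -0.04 on SH1, and its SH3 difference did not pass (limma adjusted p = 0.356).

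The INSIG genes had the widest differences among the regulators. INSIG1, whose transcription is itself driven by SREBP, was at 10.62 on LEN-GFP, 10.55 on SCR, 10.74 on SH1 and 11.23 on SH3. SH3 rose to 1.57-fold of control (log2 0.65, SE 0.11, limma adjusted p = 0.00740) and SH1 was 0.15 above it. INSIG2, its paralogue, was at 9.19, 9.05, 9.47 and 9.80. As for INSIG1, both hairpin arrays of INSIG2 lay above both controls, here with a wider gap. The difference of the groups was 0.51 (SE 0.16, limma adjusted p = 0.797, unadjusted p 0.0226), with 0.35 on SH1 and 0.68 on SH3, of which SH3 passed (limma adjusted p = 0.0156).

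STARD4, a carrier of cholesterol between membranes, was at 10.87 on LEN-GFP, 10.82 on SCR, 11.03 on SH1 and 11.22 on SH3. Both hairpins lay above both controls, with SH3 at 0.38 above the control mean. SH3 was not called in the main fit. It was called with a stricter filter on dim genes, with centring and with the mean over all probe sets, and not under the other alternatives. STARD4 has a single probe set, so its own values were unchanged by the mean over all probe sets. The SREBP genes themselves did not pass on either hairpin. SREBF1, known for fatty acid synthesis, was at 9.28, 9.04, 9.21 and 9.45, and SREBF2, known for sterol synthesis, at 11.35, 11.04, 11.16 and 11.42. In both the controls differed by 0.24 or more, with SCR below LEN-GFP, and SH1 lay between them. SCAP was at 9.51, 9.34, 9.30 and 9.24, below both controls on both hairpins, and did not pass. All 6 regulators were lower on SCR than on LEN-GFP, by a median of -0.16, against -0.03 over all genes tested.

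**Figure D3:**
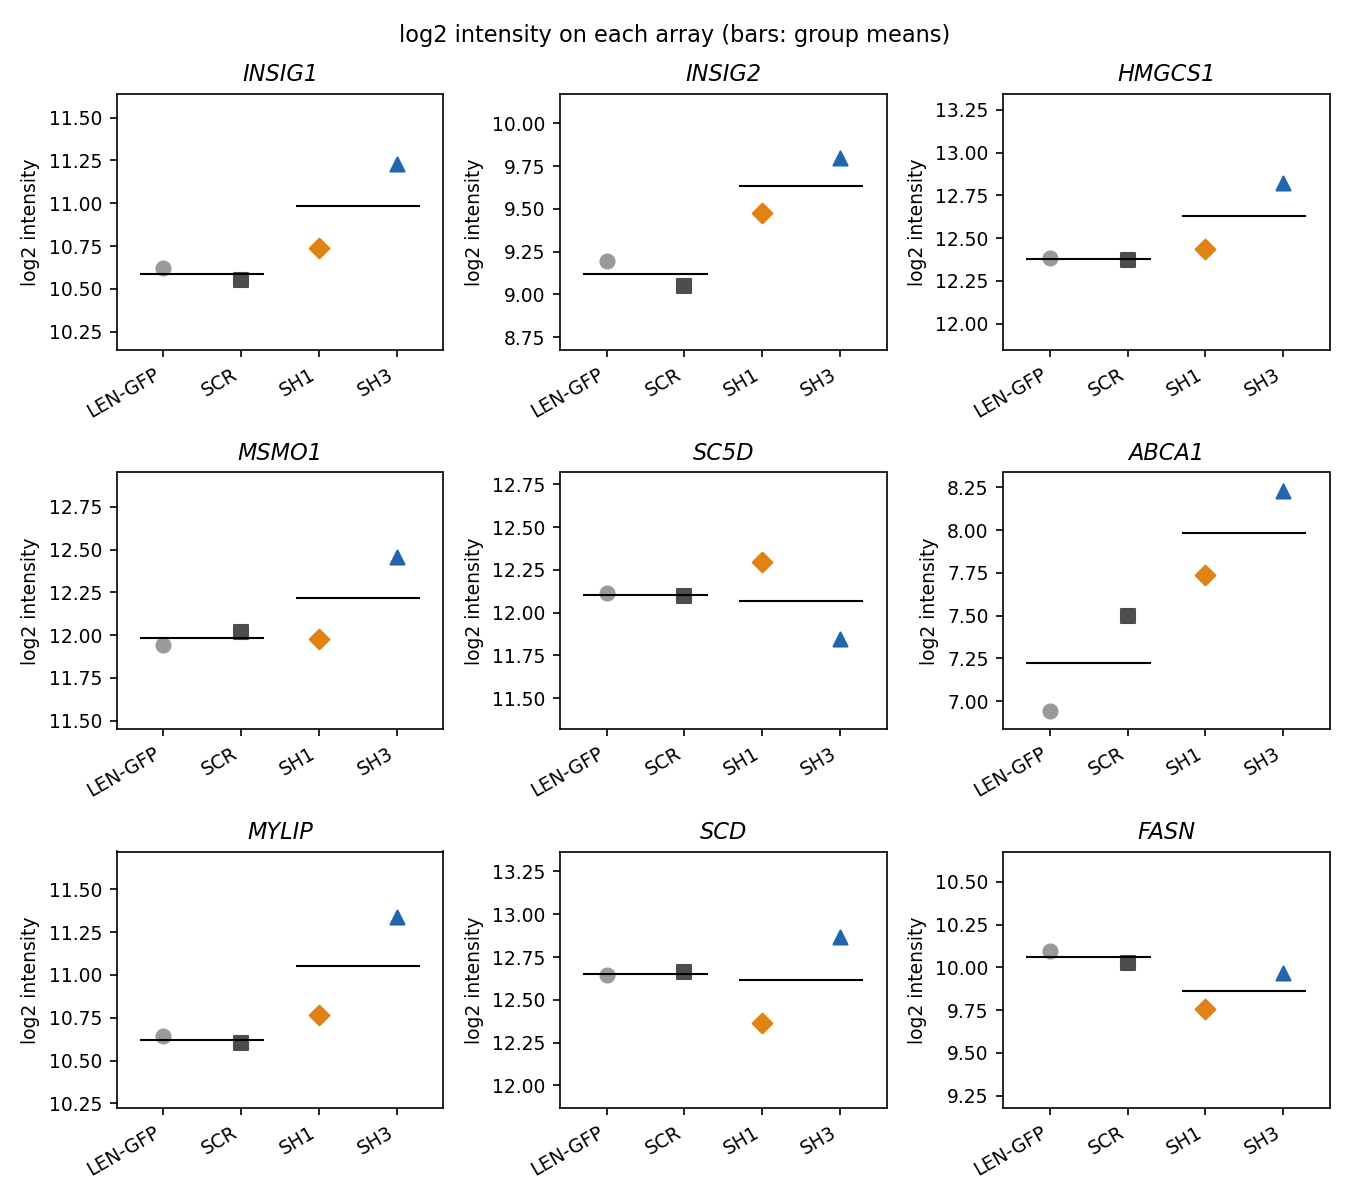
Points give the log2 intensity of 9 members on each array and bars the mean of each group, with every vertical axis 1.5 log2 units tall. INSIG1, INSIG2, ABCA1, MYLIP and, narrowly on SH1, HMGCS1 lie above both controls on both hairpins. MSMO1 lies above them on SH3 alone, and FASN below them on both hairpins. SC5D and SCD lie on opposite sides of the controls on SH1 and SH3.

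The LXR genes included the member with the largest difference. ABCA1, the exporter that loads cholesterol onto lipoproteins, was at 6.94 on LEN-GFP, 7.50 on SCR, 7.74 on SH1 and 8.23 on SH3. Both hairpin arrays lay above both controls, yet the controls differed by 0.56, more than SH1 differed from the control mean (0.51). SH3 was 2.01-fold of control (log2 1.01, SE 0.21, limma adjusted p = 0.0147), and the difference of the groups was 0.76 (SE 0.25, limma adjusted p = 0.797, unadjusted p 0.0299). Against SCR alone both hairpins were 0.48 higher on average. MYLIP was at 10.64, 10.60, 10.76 and 11.34. Its controls were level, SH1 was 0.14 above them, and SH3 rose to 1.64-fold (log2 0.72, SE 0.11, limma adjusted p = 0.00442). MYLIP had the smallest SH3 adjusted p of all members.

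The other 2 LXR genes gave no call. NR1H3, which encodes LXR alpha, was at 7.65 on LEN-GFP, 7.68 on SCR, 7.88 on SH1 and 7.74 on SH3. Both hairpin arrays lay above both controls, with SH1 the higher, and the difference of 0.14 did not pass (limma adjusted p = 0.820). ABCG1, the second exporter, was dim, at 6.48, 6.65, 6.45 and 6.65, and was not tested. SH1 lay just below the lower control and SH3 level with the higher one.

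The fatty acid genes went in mixed directions. SCD, the desaturase that makes oleate, was at 12.64 on LEN-GFP, 12.66 on SCR, 12.37 on SH1 and 12.87 on SH3. The controls agree within 0.02, and the hairpins lay on opposite sides of them, by -0.29 and 0.21, with neither passing against the controls (limma adjusted p = 0.216 and 0.119). FASN, the fatty acid synthase, was at 10.10, 10.02, 9.76 and 9.97, so that both hairpins were below both controls without passing (difference -0.19, SE 0.13, limma adjusted p = 0.814). ACLY, which makes cytosolic acetyl-CoA, was likewise below both controls on both hairpins, at -0.13 on SH1 and -0.05 on SH3. ACACA, the acetyl-CoA carboxylase, was at -0.0036 on SH1 and -0.22 on SH3.

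LPIN1, a phosphatidate phosphatase that SREBP is known to induce, was at 10.50 on LEN-GFP, 10.48 on SCR, 10.33 on SH1 and 10.91 on SH3. SH3 rose by 0.42 (SE 0.11, limma adjusted p = 0.0446), while SH1 was 0.16 below the controls. The desaturases of polyunsaturated fatty acids, FADS1 and FADS2, are neighbouring genes and differed. FADS1 was at 12.27 on both controls, 12.30 on SH1 and 12.59 on SH3, and SH3 rose by 0.33 (SE 0.08, limma adjusted p = 0.0358). FADS2 was at 12.09, 12.06, 12.00 and 12.05, with both hairpins just below both controls. Whether FADS1 and FADS2 respond differently was not tested.

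The hairpins were also compared with each other, with the spread taken from the control pair. Of 32 members 6 passed, or 18.8%, where 8.49% of all genes did. Of these 5 were higher on SH3 (4.01% of all genes were) and 1 was lower (4.48% of all genes were). The higher ones were SCD (0.50, SE 0.09, limma adjusted p = 0.0136), MSMO1 (0.48, SE 0.11, 0.0271), MYLIP (0.58, SE 0.13, 0.0276), LPIN1 (0.58, SE 0.13, 0.0311) and HMGCS1 (0.38, SE 0.09, 0.0406). SC5D was lower by 0.45 on the log2 scale, at -0.45 (SE 0.10, limma adjusted p = 0.0302). INSIG1, at 0.49, was not called in the main fit. It was called with a stricter filter on dim genes, the offset, centring or the mean over all probe sets, and not under the other alternatives. INSIG1 has a single probe set, so its own values were unchanged by the mean over all probe sets. With no intensity trend in the moderation 0 of the 6 were called, where 852 of all genes still were, and with dim genes kept 3 (MSMO1, MYLIP and SCD), so these calls depend on the settings. SH3 was above SH1 for 26 of 33 members (78.8%), against 50.1% of all genes tested.

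**Figure D4:**
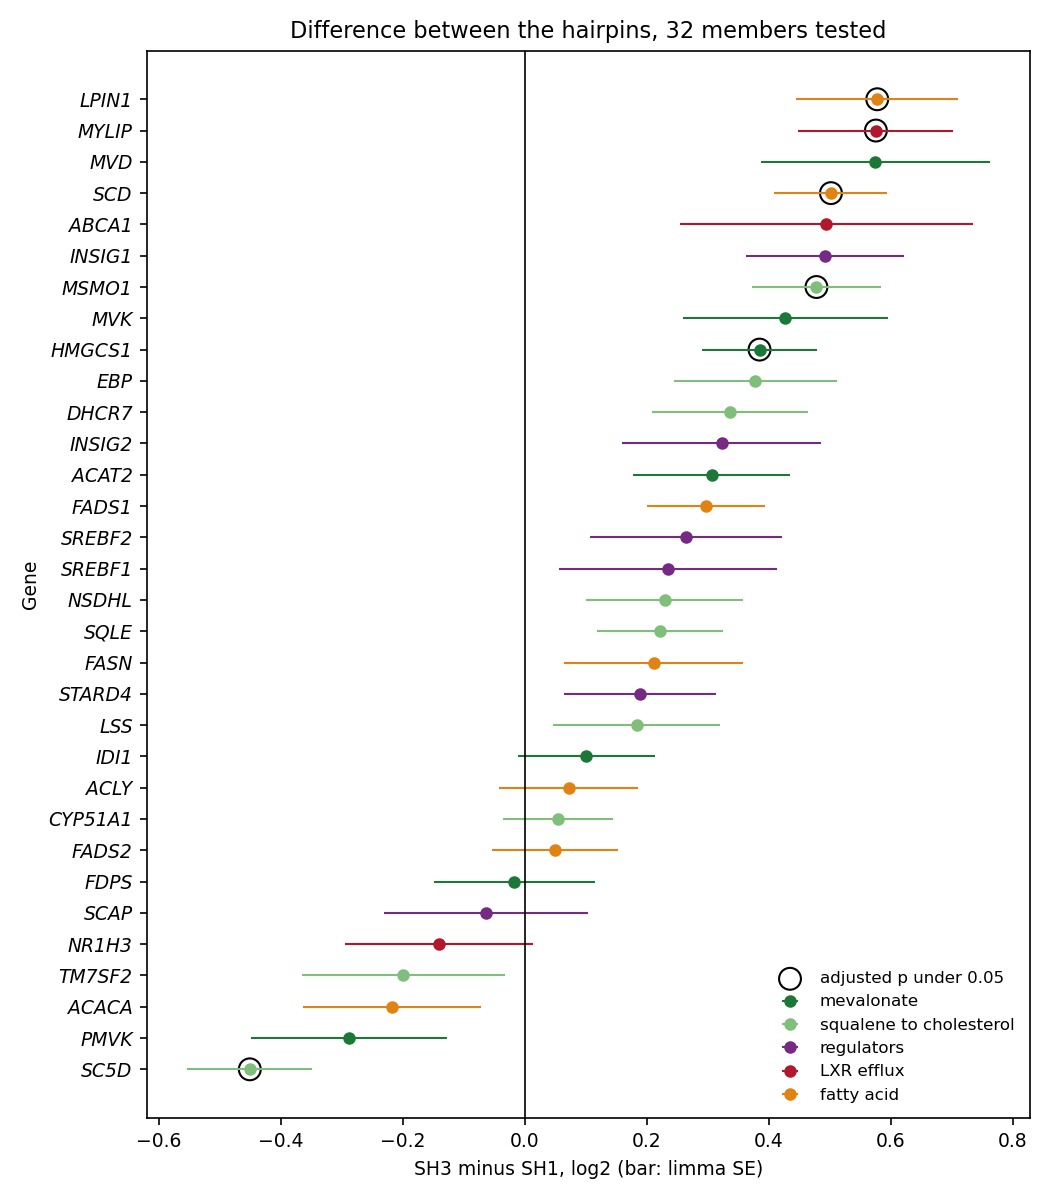
Points give SH3 minus SH1 in log2 intensity for the 32 members tested, with bars of 1 limma SE to each side, ordered by size and coloured by group. Circles mark the 6 genes with an adjusted p under 0.05: LPIN1, MYLIP, SCD, MSMO1 and HMGCS1 to the right and SC5D to the left.

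Other genes of these pathways, taken from 4 further lists, were called in both directions on SH3. Of 57 such genes 49 were measured and tested. With both hairpins against both controls 0 were called, and on SH1 alone 0. On SH3 alone 5 of the 49 were higher, where 6.27% of all genes were, and 5 lower, where 6.90% were. Higher were ERG28, a scaffold of the sterol demethylation complex (0.35), NPC1, the cholesterol exporter of the lysosome (0.66), LIPA, the lysosomal acid lipase (0.55), ACSS2, an acetyl-CoA synthetase (0.59), and ELOVL5, a fatty acid elongase (0.45). Lower were SOAT1, which esterifies cholesterol for storage (-1.01), NUS1, of dolichol synthesis (-0.75), SMPDL3A, a phosphodiesterase induced by LXR (-0.75), GPAM, an acyltransferase of triglyceride synthesis (-0.70), and HACD3, a dehydratase of fatty acid elongation (-0.67). LIPA, ACSS2, ELOVL5, NUS1 and SMPDL3A are named because they passed, after their values were seen.

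SOAT1 was at 10.96 on LEN-GFP, 10.95 on SCR, 10.76 on SH1 and 9.95 on SH3, the lowest array by a wide margin (SH3 limma adjusted p = 0.00118). NPC1 was at 10.05, 9.75, 10.19 and 10.56, with both hairpins above both controls (SH3 limma adjusted p = 0.0219). The proteases that release SREBP were lower on both hairpins. MBTPS2 was at 9.78, 9.60, 9.21 and 9.35, and MBTPS1 at 10.80, 10.57, 10.54 and 10.23, with differences of -0.41 and -0.30. Neither passed (limma adjusted p = 0.797 for each over both hairpins). The other genes of the lists with both hairpins beyond both controls were ERLIN2, LPCAT3, ACSL4, MLX and ELOVL1 on the higher side (0.13 to 0.26) and OSBPL2 and SLC25A1 on the lower side (-0.24 and -0.17), and none of them passed.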

How the data were processed

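For each of 4 arrays the authors deposited linear intensities of 33297 probe sets in 1 table. Per the submitters' processing notes, Affymetrix Expression Console 1.1 and RMA were used. Values from RMA are on a log2 scale, and no source used here states how they were made linear. RMA usually includes quantile normalization, after which a change in total RNA per cell cannot be seen. Per the labels' protocols, 200 ng of Trizol-extracted RNA was labelled with the Ambion WT kit. The median deposited intensity was between 184.8 and 189.8.

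The log2 of the deposited values was taken without an offset. Of the probe sets, 19460 had 1 gene symbol in the platform annotation, 1754 several and 12083 none, and 0 symbols needed an update against RefSeq GRCh38.p14. Each gene was represented by its brightest probe set (highest mean log2). The 30% of genes with the lowest mean (5525) were left out, and 12892 were tested with limma 3.58.1 in R 4.3.3 (lmFit, eBayes with an intensity trend), two-sided, at an adjusted p of 0.05. The comparison of the groups had 2 residual degrees of freedom, and that of SH3 with SH1 had 1. The code was checked on 5 simulated data sets with 200 changed genes each. The members and gene lists were chosen with earlier results of these data known. All members are named, and of other pathway genes the 3 with the largest difference in each direction among those whose groups do not overlap. Promoter windows came from RefSeq. Alternatives were the filter, an offset of 16, centring, the probe set rule, the moderation and leaving out each array. The number of arrays limits the precision.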

Additional observations from a re-analysis of the deposited data

Results flagged for a closer look

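For 6 members the hairpins differed from each other in limma, with the control pair giving the spread. SH3 minus SH1 was 0.38 for HMGCS1, 0.48 for MSMO1, 0.58 for MYLIP, 0.50 for SCD, 0.58 for LPIN1 and -0.45 for SC5D. Each hairpin is 1 array, so the difference is one between 2 arrays, and the adjusted p of these genes ran up to 0.160 over the alternatives. The ZFX signal on the same arrays differed by -0.02.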

How the results depend on the processing

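No paired analysis was possible because the labels give the arrays no replicate numbers, and the numbers used here only name them. Over all genes the count called between the groups was 0, and 0 to 1698 with each array left out in turn, and for the members 0 and 0 to 10. The upper ends came without SH1, and without SH3 the counts were 54 and 0. The group medians with arrays left out ran from 0.024 to 0.21 for all sterol enzymes, 0.058 to 0.44 for the mevalonate part, -0.0062 to 0.15 from squalene on, 0.10 to 0.34 for the regulators (0.23 with all arrays), 0.18 to 0.40 for LXR genes, -0.13 to -0.025 for fatty acid genes and -0.0017 to 0.23 for all members. The LXR median was 0.29 with ABCG1 and 0.43 over the genes tested alone. With arrays left out the group difference changed sign for PMVK (-0.22 to 0.073), MVD (-0.048 to 0.53), SQLE (-0.086 to 0.13), CYP51A1 (-0.0062 to 0.049), MSMO1 (-0.0017 to 0.48), NSDHL (-0.075 to 0.15), EBP (-0.10 to 0.27), SC5D (-0.26 to 0.19), SREBF2 (-0.059 to 0.25), SCD (-0.29 to 0.21) and LPIN1 (-0.16 to 0.42). Between the hairpins, 1095 genes and 6 members were called, against 2001 and 10 with each array centred on its median, 3 members with dim genes kept and 0 members without a trend. FDPS then turned to 0.0019 with centring. For SH3 alone, 1698 genes and 10 members were called, against 2585 genes with centring, 6 members with dim genes kept and 6 without a trend, and FADS2 turned to 0.0003 with centring. Without either control these single-array comparisons have no residual degrees of freedom and were not run. The causes were not tested. The other alternatives kept each count within 1.5 times and each sign.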
